A study of Danio rerio with 10 samples.

Results

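The genes described here encode the proteins that the liver releases into blood plasma: apolipoproteins, carriers of iron, copper and retinol, coagulation and fibrinolysis factors, complement components and circulating protease inhibitors. They were chosen by gene name, from a fixed set of names and name beginnings, and by a minimum of 10 counts summed over the 10 fish, and genotype did not enter the rule, although earlier results of these data were known when it was written. The names picked 70 of the 32266 rows of the count table, and 57 of these 70 reached the minimum and are the members. Of the members, 10 encode apolipoproteins, 4 carriers, 14 coagulation and fibrinolysis factors, 19 complement components and regulators, and 10 other protease inhibitors and inter-alpha-trypsin inhibitor (ITIH) chains. No row bore the names a2m or cfi. Symbols are written as the gene name table gives them, in capitals for some genes.

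The study compared livers of 5 transgenic male zebrafish with those of 5 non-transgenic male siblings, all euthanized at 4 months of age. The transgenic fish, Tg(fabp10a-pt-beta-cat), express activated β-catenin in hepatocytes from the fabp10a promoter (ABC), and their livers had been diagnosed as hepatocellular carcinoma (HCC) on histology, whereas the livers of the wild-type siblings (WT) had shown no significant abnormality. A portion of each liver went to histology and the frozen remainder gave RNA, so the share of tumor in the sequenced piece is not known. Each fish gave 1 small RNA library, numbered 6 to 10 in ABC and 1 to 5 in WT, and per-fish values follow that order.

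Hepatocytes make most plasma proteins and pass them through the secretory pathway into blood. Apolipoproteins solubilize lipid in lipoprotein particles, fibrinogen and its activating proteases form the clot, complement proteins tag and lyse microbes, and serpins and ITIH chains restrain proteases. Transcripts of these genes are among the most abundant messages of normal liver and are used as markers of hepatocyte differentiation. A small RNA library is built to capture short RNAs, so the counts on these protein-coding genes come from short inserts rather than whole messages, and a change in them is a change in these inserts.

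The ABC libraries held 1236439 to 2408262 counts, with a median of 1511306, and the WT libraries 1423307 to 2609547, with a median of 1750819. Most counts belonged to pre-miRNAs, and features outside the pre-miRNAs took 6.31% ± 0.728 of the counts in ABC and 3.27% ± 1.17 in WT (SD, n = 5 each). WT replicate 5 stood apart, with 5.32% of its counts outside the pre-miRNAs against 2.54% to 3.09% in the other WT fish. It held 53.7% of all WT counts on the members, and 52 of the 57 members had their highest WT count in it, so values without this fish are given for the calls and the group results below. Over the 10 fish the members drew 26834 counts, from 14 to 6863 per gene (median 144), and 48 to 53 of them were detected in each ABC fish against 53 to 57 in each WT fish. At this depth 1 count was worth 0.415 to 0.542 CPM in ABC and 0.367 to 0.768 CPM in WT, where CPM is a count relative to the library total as scaled by edgeR's TMM factors.

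Plasma protein transcripts took a smaller part of the non-miRNA counts in ABC than in WT. Of the counts outside the pre-miRNAs they held 1.18%, 0.738%, 2.58%, 0.708% and 1.98% in ABC, against 5.41%, 4.05%, 3.11%, 4.87% and 11.4% in WT. All 5 ABC fish lay below all 5 WT fish on this measure, with means of 1.44% ± 0.820 in ABC and 5.76% ± 3.25 in WT (SD, n = 5 each), or 4.36% ± 1.00 in WT without replicate 5 (SD, n = 4). As a share of all counts they held 0.0820%, 0.0409%, 0.175%, 0.0389% and 0.134% in ABC, against 0.140%, 0.125%, 0.0880%, 0.123% and 0.605% in WT, and here the groups overlapped. The means of this second measure were 0.0943% ± 0.0597 in ABC and 0.216% ± 0.218 in WT (SD, n = 5 each). Without replicate 5 the WT mean was 0.119% ± 0.0220 (SD, n = 4). The second measure includes the pre-miRNAs, whose part of the counts differed between the groups as given above. The first measure is relative to the counts outside the pre-miRNAs, which took 6.31% of all counts in ABC and 3.27% in WT. Whether plasma protein transcripts fell or other counts outside the pre-miRNAs rose was not tested. In bulk liver, fewer hepatocytes and fewer plasma protein transcripts per hepatocyte cannot be told apart either.

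**Figure D1:**
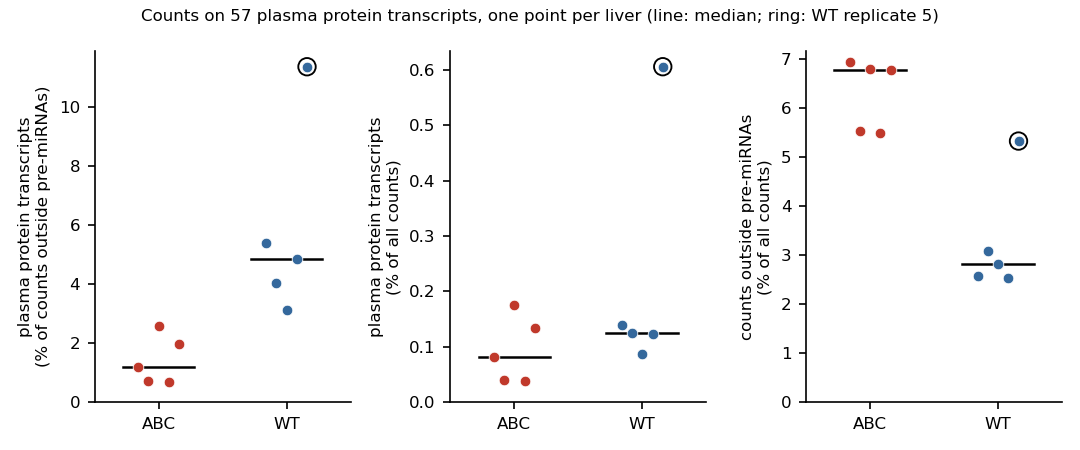
Counts on the 57 plasma protein transcripts as a percentage of the counts outside pre-miRNAs (left), as a percentage of all counts (middle), and the percentage of all counts outside pre-miRNAs (right), with 1 point per liver, the median as a line and WT replicate 5 ringed. ABC livers reach 2.58% on the left scale and WT livers start at 3.11%, whereas in the middle panel the groups overlap.

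Gene by gene, 20 of the 57 members were called lower in ABC and none higher, by edgeR's quasi-likelihood test over the 3719 features with at least 10 counts (adjusted p, padj, under 0.05 after Benjamini-Hochberg and an absolute log2 fold change, L2FC, of at least 0.5). Over all features tested, 3.41% were called lower and 4.36% higher. At an unadjusted p under 0.05, 35 members were lower, where 7.21% of all features were, and 1 member was higher, where 13.3% of all features were. DESeq2 called 26 members lower and 0 higher, against 3.23% and 2.58% of all features, and 19 of the 20 edgeR calls were among them. The remaining 37 members did not pass. Of all 57, 55 had an L2FC below 0, as had 1463 of the 3719 features tested. The sign of some uncalled members changed with the scaling, as given below. In simulated data of this design, 0% of changes with an L2FC of 1 in size and 16.4% of those of 2 were called. A member not called may therefore still differ. In 18 members every ABC fish lay below every WT fish in CPM, an arrangement found in 2.69% of all features. The reverse arrangement was found in 0 members, against 4.14% of all features. For single genes, overlap is judged throughout in this TMM-scaled CPM, with factors of 0.841 to 1.58 in ABC and 0.564 to 1.56 in WT. It can differ by library total. For CP, ABC replicate 8 had 70 of 1236439 counts and WT replicate 3 had 69 of 1987110, so by library total the groups overlap.

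The median L2FC over the members was -1.47, and over all features tested it was 0.31. Over the 45 members with at least 10 counts in each group it was -1.42, beside 0.10 over the 1374 features that met the same minimum. The counts of calls and the medians moved with the fish included and the scaling. Without WT replicate 5, 12 members were called lower, where 2.15% of all features were, and 0 higher, where 2.66% were, and the median was -1.16 against 0.48. Scaled by total count alone, 9 members were called lower, where 1.77% of all features were, and 0 higher, where 6.61% were, and the median was -1.06 against 0.72. With total count scaling and WT replicate 5 also left out, 2 members were called lower, where 1.34% of all features were, and 1 higher, where 14.1% were. The median of the members minus that of all features was -1.78 on the log2 scale in the TMM fit, -1.64 without WT replicate 5, and between -1.92 and -1.53 over all fits run.

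**Figure D2:**
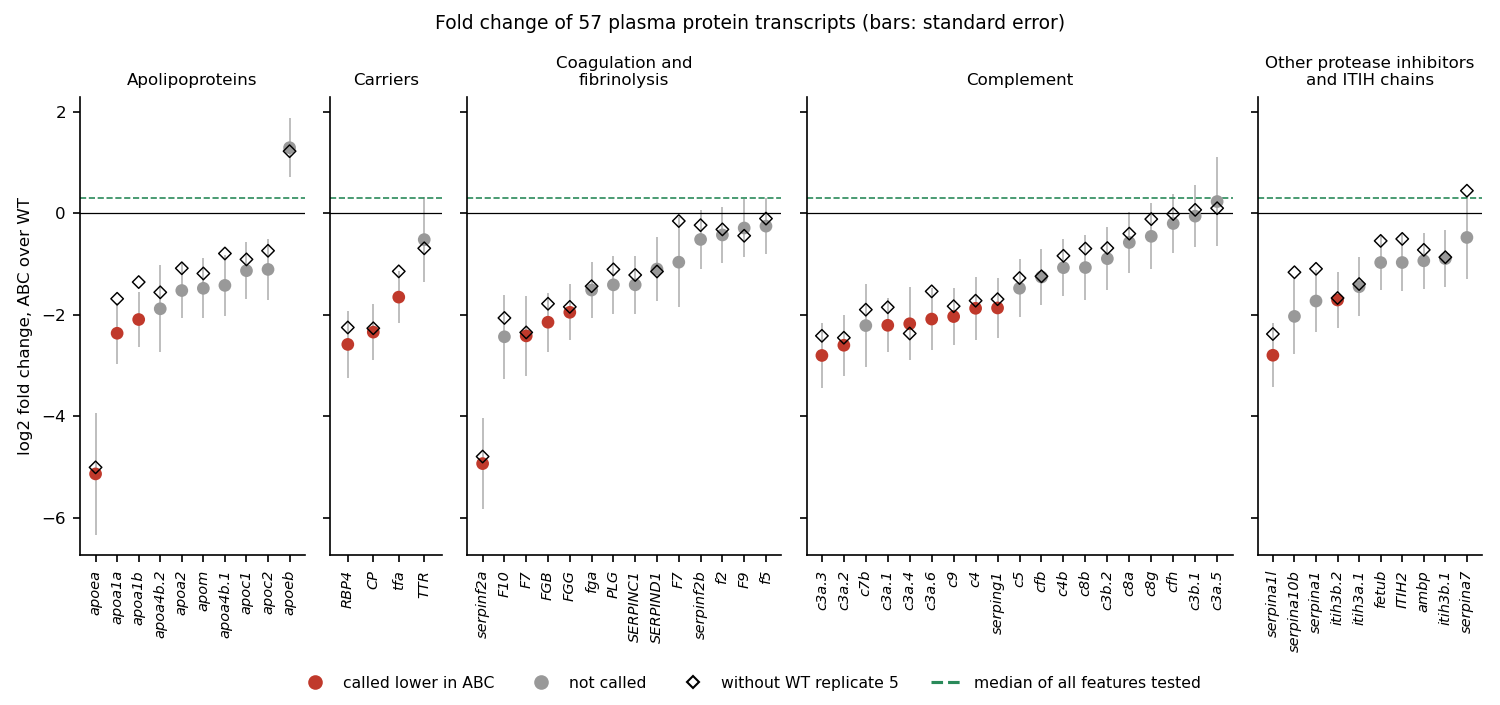
L2FC of each of the 57 members by role, ABC over WT, with red points for genes called lower in ABC, grey points for genes not called and bars for the standard error. Open diamonds give the L2FC without WT replicate 5 and the dashed line the median of all features tested (0.31). All filled points but apoeb (1.30) and c3a.5 (0.24) lie below 0, and that of apoea, with 0 counts in ABC, depends on the prior count of the fit.

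Both apoa1 copies, which encode the main structural protein of high-density lipoprotein, were called lower with all fish. apoa1b (ENSDARG00000101324) had 50.4, 21.2, 37.0, 18.5 and 27.5 CPM in ABC livers, against 96.5, 67.7, 89.1, 62.6 and 341 CPM in WT livers. The groups did not overlap, and most of the WT spread came from replicate 5 (L2FC -2.09 ± 0.55 SE, padj = 0.00830). apoa1a (ENSDARG00000012076) had 7.59, 13.3, 14.3, 5.66 and 8.53 CPM in ABC, against 39.1, 63.9, 12.3, 12.2 and 126 CPM in WT. Here the lowest WT fish were within the ABC range (L2FC -2.36 ± 0.60 SE, padj = 0.00592). Neither apoa1 call survived leaving out WT replicate 5, where L2FC was -1.35 for apoa1b (padj = 0.0967) and -1.68 for apoa1a (padj = 0.0758). apoa2, the second protein of that particle in mammals, had 25.6 to 134 CPM in ABC (median 27.0) and 89.8 to 303 CPM in WT (median 114), and was not called (L2FC -1.52 ± 0.54 SE, padj = 0.0643). Leaving out ABC replicate 8 gave it a call (L2FC -2.25, padj = 0.000677), whereas leaving out WT replicate 5 gave an L2FC of -1.08 (padj = 0.225).

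The 2 apolipoprotein E genes had L2FC values of opposite sign. Apolipoprotein E is the ligand by which lipoprotein remnants are taken up through the LDL receptor family in mammals. apoea (ENSDARG00000102004) had no count in any ABC liver and 1, 10, 0, 1 and 7 counts in the WT livers. With a floor of 3 counts for the ABC group as a whole, its pooled scaled counts were 7.96-fold lower in ABC. That value leaves out the spread between fish and the error of the WT count. The gene thus reached the minimum of 10 counts through WT alone. It was called lower in the TMM fit and in all 10 fits that leave out a fish (padj = 0.00228 with all fish). Those 10 fits kept the features of the fit with all fish, so they did not repeat the choice by counts. The call rests on 19 counts, most of them in WT replicates 2 and 5. DESeq2 gave apoea no adjusted p, and 1 WT liver had no count of it either. apoeb (ENSDARG00000040295) had 38, 20, 57, 17 and 43 counts in ABC, against 14, 6, 12, 8 and 16 counts in WT, or 20.6, 8.30, 30.1, 8.75 and 20.4 CPM against 10.7, 4.56, 9.21, 5.44 and 5.88 CPM. Every ABC count was above every WT count, but in CPM the groups overlapped and the gene was not called (L2FC 1.30 ± 0.58 SE, padj = 0.177). It was singled out after its values were seen, as the member with the highest L2FC. Its L2FC was above 0 in every fit, from 1.02 to 1.45 in those that leave out a fish, and it was called only with total count scaling and WT replicate 5 left out (2.09, padj = 0.0259).

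In the RefSeq gene table (assembly GRCz12tu, not the build of the counts) apoeb lies on chromosome 16 with no protein-coding gene between it and apoa4b.2 on one side or apoc1 on the other. Within that row of genes apoa2, apoa4b.1, apoa4b.2, apoc1 and apoc2 had L2FC values from -1.88 to -1.10, none called. apoc1 and apoc2 modulate lipoprotein lipase and remnant uptake in mammals. Within the apolipoprotein counts, where library scaling cancels, apoeb took 16.7%, 11.9%, 14.0%, 14.7% and 24.9% of the counts on apoeb, apoa1a, apoa1b and apoa2 in ABC, against 4.00%, 1.82%, 4.15%, 3.20% and 0.757% in WT. All 5 ABC livers lay above all 5 WT livers, with means of 16.4% ± 5.02 in ABC and 2.79% ± 1.46 in WT (SD, n = 5 each), or 3.29% ± 1.07 in WT without replicate 5 (SD, n = 4). Since these genes were picked for this share after their values were seen, it is given as a description with no test. In all, 3 of the 10 apolipoprotein members were called lower, where 3.41% of all features were. Without WT replicate 5 it was 1, where 2.15% of all features were. Of the 10, 9 had an L2FC below 0, as had 1463 of the 3719 features tested. The median L2FC of the 10 was -1.50 (-1.13 without WT replicate 5). The least covered of the others was apoa4b.2, with 18 counts, and apom, a sphingosine 1-phosphate carrier of high-density lipoprotein in mammals, was not called (L2FC -1.47, padj = 0.117) except by DESeq2, with filterByExpr or with a minimum of 20 counts.

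**Figure D3:**
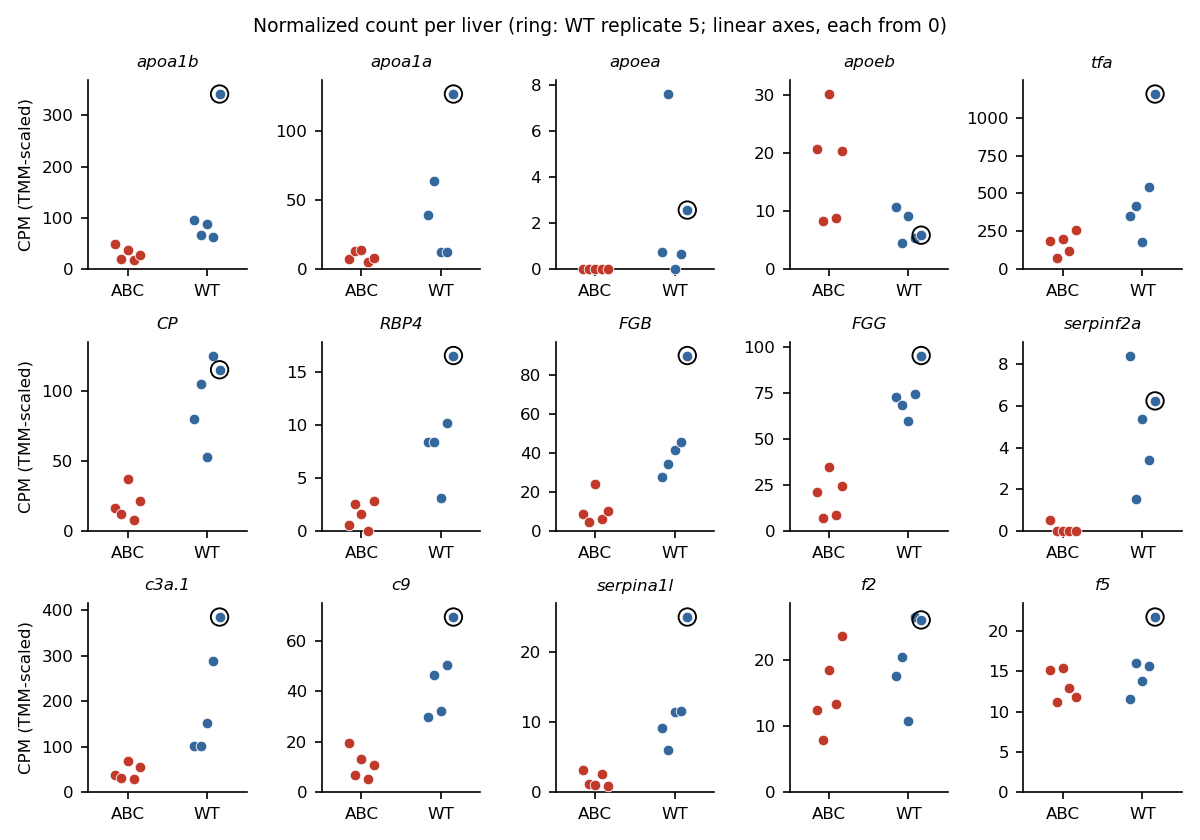
CPM per liver, scaled by TMM, for 15 members, ABC left of WT, each panel on its own linear axis from 0 and WT replicate 5 ringed. For CP, FGG, FGB, serpinf2a and serpina1l the ABC points lie under all WT points, for f2 and f5 they intermix, and apoeb is the panel in which ABC lies higher.

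Of the 4 carriers, 3 were called lower, where 3.41% of all features were. Without WT replicate 5, 2 were called lower, where 2.15% of all features were. With total count scaling it was 1, where 1.77% of all features were. tfa (ENSDARG00000016771) encodes transferrin, the iron carrier of plasma, and drew 25.6% of all counts on the members. It had 187, 74.7, 201, 121 and 259 CPM in ABC, against 349, 414, 180.5, 542 and 1155 CPM in WT (L2FC -1.65 ± 0.51 SE, padj = 0.0287). WT replicate 3 lay within the ABC range, and the gene was not called without WT replicate 5 (L2FC -1.14, padj = 0.132), without ABC replicate 7 (L2FC -1.54, padj = 0.0618) or with total count scaling (L2FC -1.35, padj = 0.123). CP (ENSDARG00000010312), the copper-binding ferroxidase ceruloplasmin, had 16.3, 12.04, 37.0, 7.72 and 21.3 CPM in ABC, against 79.7, 105, 53.0, 125 and 115 CPM in WT. Its groups did not overlap in CPM, and WT replicate 5 was not its highest WT liver. CP was called with all fish (L2FC -2.34 ± 0.55 SE, padj = 0.00270) and without WT replicate 5 (L2FC -2.26, padj = 0.00560). RBP4 (ENSDARG00000101199), which carries retinol from liver stores, had 0.542, 2.49, 1.59, 0 and 2.84 CPM in ABC, against 8.43, 8.36, 3.07, 10.2 and 16.5 CPM in WT. In CPM it was lower in every ABC liver than in any WT liver, by a narrow margin (2.84 against 3.07). In counts the groups overlapped, with 6 in each of ABC replicates 7 and 10 and 4 in WT replicate 3. RBP4 was called with all fish (L2FC -2.58 ± 0.66 SE, padj = 0.00574) and without WT replicate 5 (L2FC -2.25, padj = 0.0309). It was not called with total count scaling (L2FC -2.24, padj = 0.0844). The fourth carrier, transthyretin (TTR), had 17 counts in all and was not called, and haptoglobin (hp) had 2 counts and was not tested.

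In the clotting system, FGG (ENSDARG00000037281) and FGB (ENSDARG00000008969), the gamma and beta chains of fibrinogen, were called lower. FGG had 21.1, 7.06, 34.9, 8.75 and 24.2 CPM in ABC, against 72.8, 68.4, 59.9, 74.2 and 95.2 CPM in WT (L2FC -1.95 ± 0.55 SE, padj = 0.0159). FGB had 8.68, 4.57, 24.3, 6.18 and 10.4 CPM in ABC, against 27.6, 34.2, 41.5, 45.6 and 90.0 CPM in WT (L2FC -2.14 ± 0.58 SE, padj = 0.0104). Neither gene's groups overlapped, and both stayed called in all 10 fits that leave out a fish, but not with total count scaling (L2FC -1.40 and padj = 0.142 for FGG, -1.73 and padj = 0.0990 for FGB). fga, the alpha chain, had 20.6, 14.1, 99.3, 20.1 and 13.7 CPM in ABC, against 62.8, 73.8, 92.1, 134 and 115 CPM in WT. Replicate 8 alone brought the ABC group into the WT range, and the gene was not called with all fish (L2FC -1.51 ± 0.55 SE, padj = 0.0764). Without ABC replicate 8 it was called lower (L2FC -2.48, padj = 0.000251).

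Prothrombin (f2), factor V (f5) and factor IX (F9) were not called. They are the precursor of thrombin, the cofactor of activated factor X in the prothrombinase complex, and a protease upstream of that complex. f2 had 12.5, 7.89, 18.5, 13.4 and 23.7 CPM in ABC, against 17.6, 20.5, 10.8, 26.5 and 26.1 CPM in WT (L2FC -0.42 ± 0.55 SE, padj = 0.751). f5 had 15.2, 11.2, 15.3, 12.9 and 11.8 CPM in ABC, against 11.5, 15.97, 13.8, 15.6 and 21.7 CPM in WT (L2FC -0.25 ± 0.55 SE, padj = 0.870). F9 ranged from 5.15 to 11.4 CPM in ABC and from 4.60 to 15.4 CPM in WT (L2FC -0.29 ± 0.57 SE, padj = 0.858). The groups overlapped for all 3 genes, and with total count scaling their L2FC values turned to 0.08, 0.15 and 0.33, none called. As a share of the counts on these 3 genes and the 3 fibrinogen genes, f2, f5 and F9 held 43.6%, 50.4%, 20.2%, 47.3% and 46.0% in ABC, against 17.1%, 20.8%, 17.1%, 16.7% and 15.0% in WT. The means were 41.5% ± 12.2 in ABC and 17.4% ± 2.12 in WT (SD, n = 5 each), or 17.9% ± 1.92 in WT without replicate 5 (SD, n = 4), and ABC replicate 8 alone fell within the WT range. The 3 genes were picked for this share after their values were seen, so no test was made.

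Among the other clotting genes, serpinf2a (ENSDARG00000076448) had the lowest L2FC, with a single count in ABC. It is 1 of 2 zebrafish copies of alpha-2-antiplasmin, the inhibitor of plasmin. It had 1, 0, 0, 0 and 0 counts in ABC and 11, 2, 7, 5 and 17 counts in WT. The gene thus reached the minimum of 10 counts through WT, and the size of its fall rests on 1 count in ABC. The groups did not overlap, the ratio of scaled counts was 52.8-fold lower in ABC (95% exact interval 8.97 to 2134, counting error only), and it was called in every fit run on it (padj = 6.43e-05 with all fish, 0.000814 without WT replicate 5). Its paralog serpinf2b was not called. F7 (ENSDARG00000034862), factor VII, which starts the extrinsic pathway, had 0 to 1.06 CPM in ABC and 1.36 to 3.83 CPM in WT, with no overlap. It was called lower, but not without WT replicate 5 (L2FC -2.41 ± 0.79 SE, padj = 0.0430; -2.34 and padj = 0.0820 without it), and the call held in 4 of the 10 fits that leave out a fish. Another row named F7 (ENSDARG00000100782) had 14 counts and was not called, and the factor X gene, F10, just missed (L2FC -2.43, padj = 0.0528). Plasminogen (PLG, L2FC -1.41, padj = 0.120) and antithrombin (SERPINC1, L2FC -1.41, padj = 0.129) were called by DESeq2 or in other alternative fits only. In all, 4 of the 14 clotting members were called lower, where 3.41% of all features were. Without WT replicate 5 it was 3, where 2.15% of all features were. All 14 had an L2FC below 0, as had 1463 of the 3719 features tested. The median of the 14 was -1.41 (-1.18 without that fish).

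Complement, the role with the most members, held the largest number of calls, 8 of 19, where 3.41% of all features were called lower. By share the carriers led, with 3 of 4 called (2 without WT replicate 5), but that share rests on only 4 genes. Of the 8 complement calls, 5 were copies of c3. C3 is the component on which all complement pathways converge, and zebrafish carry many copies of it. c3a.1 (ENSDARG00000012694) had 37.4, 31.6, 69.2, 30.4 and 55.0 CPM in ABC, against 103, 101, 153, 288 and 386 CPM in WT (L2FC -2.20 ± 0.53 SE, padj = 0.00329). c3a.2 (ENSDARG00000087359) had 4.88, 2.08, 6.34, 4.63 and 7.58 CPM in ABC, against 22.2, 19.0, 19.2, 51.7 and 43.0 CPM in WT (L2FC -2.60 ± 0.60 SE, padj = 0.00196). c3a.3 (ENSDARG00000052207) had 1.06 to 3.74 CPM in ABC and 4.56 to 32.3 CPM in WT (L2FC -2.80 ± 0.64 SE, padj = 0.00174). None of these 3 overlapped between groups, WT replicates 4 and 5 were the highest livers for each, and all stayed called without replicate 5 (padj = 0.0156, 0.00528 and 0.0118). c3a.6 (L2FC -2.08, padj = 0.0195) and c3a.4 (L2FC -2.17, padj = 0.0453) were called too, c3a.6 not without WT replicate 5 (L2FC -1.53, padj = 0.101) or ABC replicate 10 (L2FC -1.93, padj = 0.0542), nor with total count scaling (L2FC -1.78, padj = 0.128). The c3a.4 call held in 4 of the 10 fits that leave out a fish (L2FC -2.37 and padj = 0.0487 without WT replicate 5, -1.64 and padj = 0.238 without WT replicate 4) and not with total count scaling (L2FC -1.54, padj = 0.270). c3a.5, with few counts, was not called. Copies of c3a lie together on chromosome 1 in the RefSeq table and how reads that match several genes were handled is not given in the sources used here, so the split of counts among them is uncertain.

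The c3b copies, next to each other on chromosome 22, were not called. c3b.1 had 2.71, 1.66, 2.64, 4.12 and 4.27 CPM in ABC, against 3.06, 0.760, 1.54, 6.12 and 4.04 CPM in WT (L2FC -0.05 ± 0.61 SE, padj = 0.977), and its L2FC turned to 0.41 with total count scaling and to 0.07 without WT replicate 5. c3b.2 ranged from 1.03 to 3.32 CPM in ABC and from 1.54 to 5.88 CPM in WT (L2FC -0.89 ± 0.62 SE, padj = 0.457). Of all c3 counts, the c3b copies held 9.01%, 7.55%, 5.03%, 10.99% and 9.36% in ABC, against 5.37%, 2.66%, 1.49%, 2.44% and 1.88% in WT. The means were 8.39% ± 2.24 in ABC and 2.77% ± 1.52 in WT (SD, n = 5 each), or 2.99% ± 1.66 in WT without replicate 5 (SD, n = 4), with an overlap between ABC replicate 8 and WT replicate 1. The c3b share rests on 8 to 16 c3b counts per ABC fish and 4 to 27 per WT fish and, chosen after the values were seen, was not tested.

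**Figure D4:**
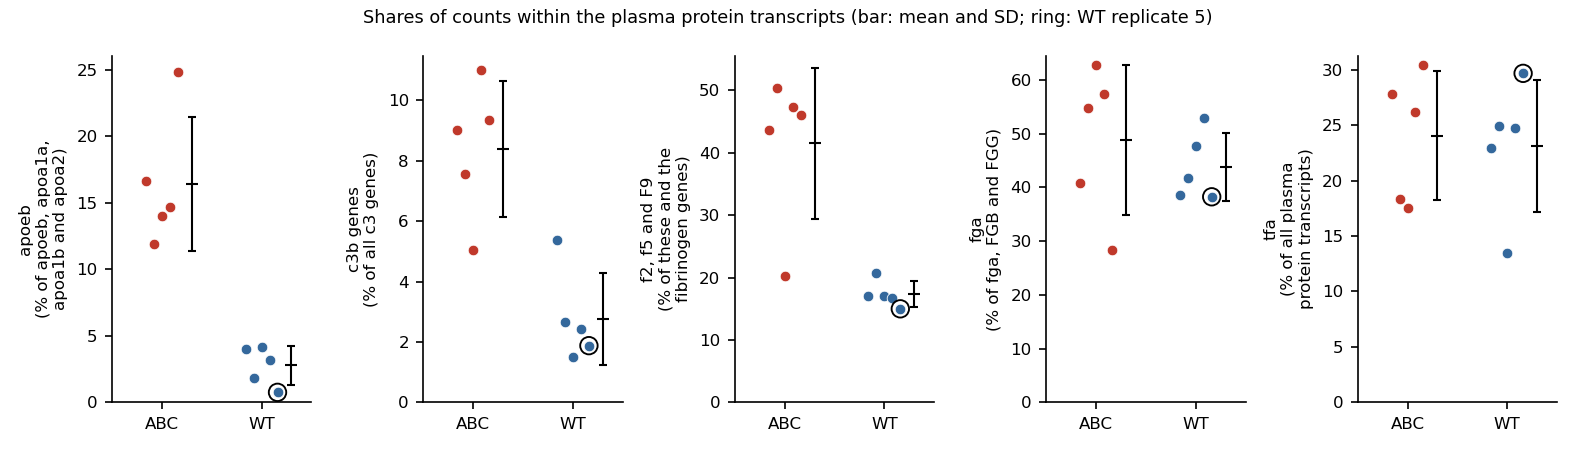
Shares of counts within the members, in percent, with 1 point per liver, bars for mean and SD, and WT replicate 5 ringed. ABC livers lie above all WT livers for apoeb (11.9% to 24.9% against 0.757% to 4.15%) and higher on average for the c3b genes and for f2, f5 and F9, whereas the shares of fga within fibrinogen and of tfa within the members overlap broadly.

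The other complement calls were c9, c4 and serping1. c9 (ENSDARG00000016319), the pore-forming unit of the membrane attack complex, had 19.5, 7.06, 13.2, 5.15 and 10.9 CPM in ABC, against 29.9, 46.4, 32.3, 50.3 and 69.5 CPM in WT. The groups did not overlap and the call held in all 10 fits that leave out a fish (L2FC -2.03 ± 0.57 SE, padj = 0.0139), but not with total count scaling (L2FC -1.60, padj = 0.100). The C1 inhibitor gene serping1 had 2.17 to 6.16 CPM in ABC and 6.13 to 19.8 CPM in WT (L2FC -1.86 ± 0.59 SE, padj = 0.0357), and c4, of the classical and lectin pathways, had 1.25 to 19.0 CPM in ABC and 4.60 to 40.8 CPM in WT (L2FC -1.87 ± 0.62 SE, padj = 0.0470). Neither was called without WT replicate 5 (L2FC -1.69 and padj = 0.0719 for serping1, -1.72 and padj = 0.0972 for c4). Of the 10 fits that leave out a fish, the serping1 call held in 4 and the c4 call in 2, and neither held with total count scaling. The other C4 gene, c4b, drew more counts (368, against 287 for c4) and was called in no fit (L2FC -1.07, padj = 0.283 with all fish). Factor B (cfb), the protease of the alternative pathway convertase, had an L2FC of -1.25 (padj = 0.165). DESeq2 alone called it lower (padj = 0.0384). The first component of the lytic pathway, c5, had 3.09 to 10.0 CPM in ABC and 12.2 to 28.3 CPM in WT, with no overlap. It was not called in the TMM fit with all fish (L2FC -1.47, padj = 0.103). DESeq2 called c5 lower (padj = 0.0149), as did the fits with filterByExpr, with a minimum of 20 counts and without ABC replicate 8. Factor H (cfh), the inhibitor of that convertase, had 2.91 to 14.2 CPM in ABC and 2.28 to 15.0 CPM in WT (L2FC -0.20, padj = 0.914, and 0.33 with total count scaling). Of the 6 terminal members (c5, c7b, c8a, c8b, c8g and c9), c9 alone was called in the TMM fit with all fish. Over the 19 complement members the median L2FC was -1.47 and 18 were below 0, as were 1463 of the 3719 features tested. Without WT replicate 5 the median was -1.27 and 5 members were called lower, where 2.15% of all features were.

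The protease inhibitors and ITIH chains held 2 calls of 10, where 3.41% of all features were called lower. Without WT replicate 5 it was 1, where 2.15% of all features were. All 10 L2FC values were below 0, as were 1463 of the 3719 over all features tested. The median of the 10 was -1.20 (-0.98 without WT replicate 5). serpina1l (ENSDARG00000090850), an alpha-1-antitrypsin-like serpin, had 3.25, 1.25, 1.06, 2.57 and 0.948 CPM in ABC, against 9.19, 6.08, 11.5, 11.6 and 25.0 CPM in WT. The groups did not overlap and the call held without any 1 fish (L2FC -2.79 ± 0.63 SE, padj = 0.00161). Its neighbour on chromosome 20, serpina1, had 0.415 to 3.80 CPM in ABC and 5.44 to 23.5 CPM in WT, again with no overlap, and was called by DESeq2 but not in the TMM fit with all fish (L2FC -1.73 ± 0.61 SE, padj = 0.0647). itih3b.2 (ENSDARG00000100406), a hyaluronan-binding heavy chain, had 15.7, 9.96, 22.7, 22.7 and 30.8 CPM in ABC, against 38.3, 87.4, 35.3, 98.0 and 73.5 CPM in WT. It did not overlap between groups and was called (L2FC -1.71 ± 0.55 SE, padj = 0.0397). The call was lost in 5 of the 10 fits that leave out a fish, among them that without WT replicate 5 (L2FC -1.67, padj = 0.0531), and with total count scaling. itih3a.1 had 2.91 to 5.81 CPM in ABC and 8.43 to 15.0 CPM in WT and was called in alternative fits only (L2FC -1.44, padj = 0.117). fetub, a metalloprotease inhibitor, had 19.5, 24.1, 135, 28.8 and 64.0 CPM in ABC, against 92.7, 98.8, 53.0, 71.4 and 214 CPM in WT, with overlap (L2FC -0.97, padj = 0.322). ambp, the precursor of bikunin and alpha-1-microglobulin, overlapped as well (L2FC -0.93, padj = 0.356), and the L2FC of both turned above 0 with total count scaling and WT replicate 5 left out.

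The shares of the 5 roles among the members overlapped between ABC and WT. Of the counts on the members, complement genes held 20.3% ± 2.56 in ABC and 23.2% ± 6.77 in WT, and inhibitors 15.9% ± 3.19 in ABC and 12.9% ± 2.13 in WT (SD, n = 5 each). Carriers held 27.0% ± 5.39 in ABC and 28.5% ± 6.13 in WT, apolipoproteins 19.4% ± 3.54 in ABC and 18.7% ± 5.02 in WT, and clotting genes 17.4% ± 2.16 in ABC and 16.7% ± 3.21 in WT. The WT means without replicate 5 were 23.8% for complement genes, 13.3% for inhibitors, 27.3% for carriers, 17.6% for apolipoproteins and 17.97% for clotting genes. The shares of tfa among the members (24.0% ± 5.81 in ABC, 23.1% ± 5.96 in WT, or 21.5% without WT replicate 5) and of fga among the fibrinogen genes (48.8% ± 14.0 in ABC, 43.8% ± 6.30 in WT, or 45.2% without WT replicate 5) overlapped likewise.

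**Figure D5:**
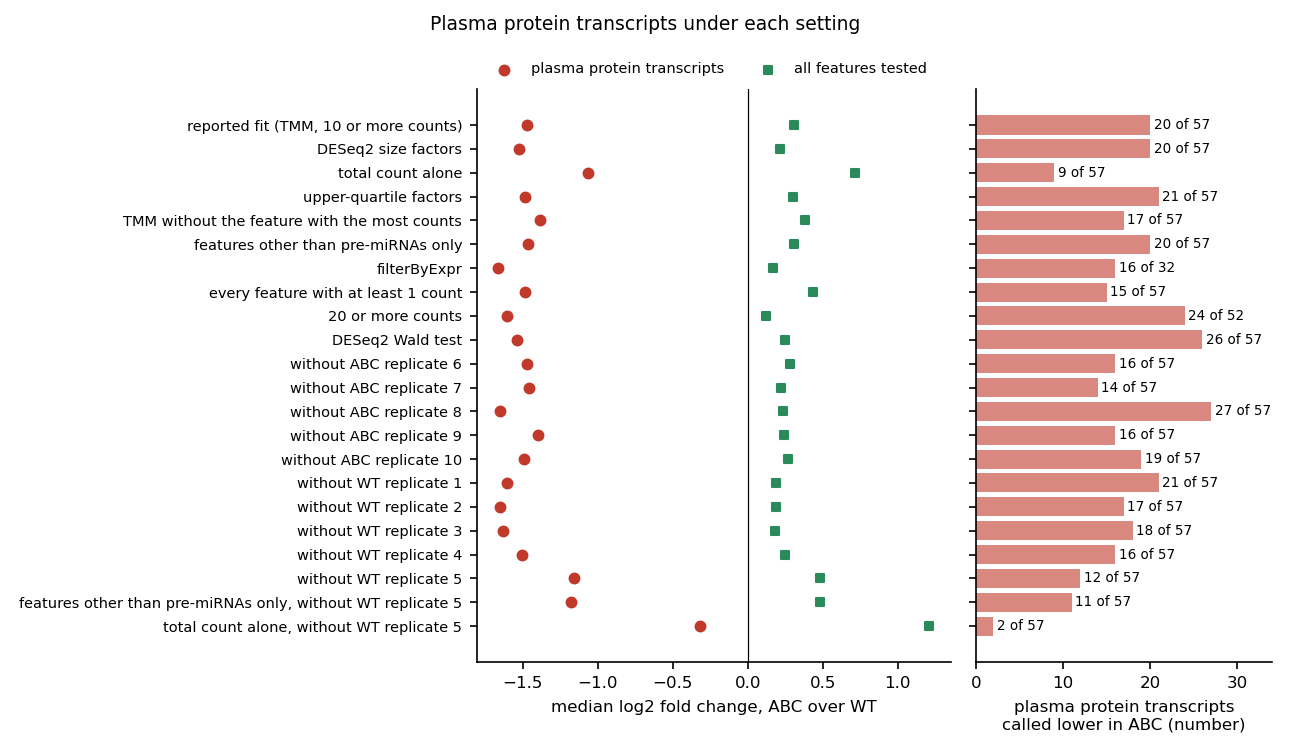
Median L2FC of the plasma protein transcripts (red) and of all features tested (green squares) on the left, and the number of members called lower in ABC of those tested on the right, in each fit run. The red points stay left of the green points in every fit, while the number called runs from 2 with total count scaling and WT replicate 5 left out to 27 with ABC replicate 8 left out.

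Other secreted liver proteins that the names did not pick, such as hemopexin, fibronectin and apolipoprotein B, were read from a separate list. Of its 31 tested genes, 9 were called lower and 1 higher (7 and 1 without WT replicate 5), with a median L2FC of -0.71. The median was -0.53 without that fish and -0.23 with total count scaling. By counts the leading calls were apobb.1 (ENSDARG00000022767, a copy of the gene for apolipoprotein B, the structural protein of very low density lipoprotein, L2FC -2.05), FN1 (fibronectin, ENSDARG00000006526, L2FC -4.22), APOB (another such copy, L2FC -2.63) and hpxa (the heme carrier hemopexin, L2FC -2.95). Of these, apobb.1 was not called without WT replicate 5 (L2FC -1.48, padj = 0.0651). The gene called higher was afp4 (L2FC 2.03). Of 35 hepatocyte enzyme genes, 1 was called lower (FASN, L2FC -2.55) and 1 higher (HMGCS1, L2FC 3.49). Over all features, 3.41% were called lower and 4.36% higher. FASN had 14, 5, 3, 5 and 32 counts in ABC, against 127, 30, 6, 41 and 54 in WT, so the groups overlapped. The HMGCS1 call rests on 21 counts over ABC, 10 of them in ABC replicate 6, and 1 over WT. Without WT replicate 5 FASN was still called lower, HMGCS1 was not called (padj = 0.0842) and BHMT was called higher (L2FC 2.46, padj = 0.0162). The median L2FC of the enzyme genes was -0.48, but -0.08 without WT replicate 5 and -0.11 with total count scaling. For the 30 secretory pathway genes it was -0.26, but it turned to 0.28 without WT replicate 5 and to 0.11 with total count scaling. fabp10a, the hepatocyte gene whose promoter drives the transgene, was detected in all 10 livers, with 96, 31, 198, 65 and 86 counts in ABC, against 133, 69, 38, 56 and 261 counts in WT. It was not called (L2FC -0.38, padj = 0.765).

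Markers of other cells were read from lists as well, and the lists did not all move in the same direction. All 12 tested exocrine pancreas genes, of 16 rows found, were called lower, where 3.41% of all features were. Without WT replicate 5, 11 were, where 2.15% of all features were. Only 2 of the 12, prss1 and CELA1, had at least 10 counts in each group. The rest had under 10 over ABC and reached the count minimum through WT, so the number called depends in part on that minimum. The summed level of these genes was 4.88 to 9.48 CPM in ABC and 39.1 to 672 CPM in WT (up to 161 CPM without replicate 5). Biliary and other epithelial genes summed to 54.5 to 158.5 CPM in ABC and 18.2 to 42.6 CPM in WT. Most of these counts were on krt18a.1 (401 over ABC, 48 over WT) and krt8 (279 over ABC, 83 over WT). Another 3 of the genes, krt4, krt5 and krt91, had an L2FC below 0, and epcam was not called. Which cells gave these counts was not tested. Of 9 tested, krt18a.1 (L2FC 2.76) and cldn15la (L2FC 4.44) were called higher and krt5 (L2FC -3.54) lower. The cldn15la call rests on 15 counts over ABC, 10 of them in ABC replicate 7, and 0 over WT. Without WT replicate 5 cldn15la was not called (padj = 0.0842), krt18a.1 and krt5 stayed called, and krt8 was called higher (L2FC 1.95, padj = 0.0452). Both muscle genes tested, the creatine kinases ckma (0 counts over ABC, 26 over WT) and ckmb (1 count over ABC, 26 over WT), were called lower with all fish and neither without WT replicate 5 (padj = 0.0897 for ckma and 0.334 for ckmb). Of the leukocyte list 2 genes reached 10 counts and neither was called, and of the endothelial list none did. Trypsin (prss1) had 11 counts over the ABC livers and 383 over the WT livers. The part of pancreatic, epithelial or muscle cells in the lower plasma protein counts was not tested.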

How the data were processed

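The authors prepared small RNA libraries from frozen liver with a NEBNext kit after Direct-zol extraction and sequenced single reads of 50 bases. For miRNAs, the paper gives alignment to GRCz10 and counting with miRBase. How reads on other genes were counted is not stated there. The submitters' processing notes list Novoalign and featureCounts, without versions. The deposited table holds raw counts per Ensembl gene and fish, and every row has a gene identifier. A table of gene names gave symbols for 26433 of the 32266 identifiers. The astacin proteases named c6ast are no complement genes and were not picked. The members and lists were chosen with earlier results of these data known. The genes just inside the count minimum were F7 (14 counts), TTR (17), apoa4b.2 and serpina7 (18 each) and apoea (19). Just outside were c7a, apoc4 and serpinf1 (9 each).

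Fits were made with edgeR 4.0.16 and limma 3.58.1 under R 4.3.3, using TMM factors, glmQLFit and glmQLFTest, ABC against WT over all 10 fish, with Benjamini-Hochberg adjustment over the 3719 features. DESeq2 1.42.0 was an alternative, as were other scalings, count filters, call thresholds and leaving out each fish. The procedure was tested on simulated counts for these features, of which 3274 were tested and 183 of those had been changed. It called 22.4% of the changed features: 0% at an L2FC of 1 in size, 16.4% at 2 and 57.7% at 3. Among changed features with a mean of at least 10 counts it called 21.4% at 2 and 92.9% at 3. There was 1 false call. The SE of an L2FC was taken from it and its F statistic (L2FC over the root of F). Genes named are all called members, the 3 with the most counts in each role, members called under an alternative test, filter or scaling, and, in the lists, called genes, at most the 4 with the most counts per list. Others, among them apoeb, f2, f5, F9, cfh, the c3b genes, BHMT and afp4, were chosen after their values were seen. Replicates are separate fish. No sequences or coordinates are given, as no genome of the counts' build was used here.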

Additional observations from a re-analysis of the deposited data

Results flagged for a closer look

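In 94 groups of 5 fish (47 measures in ABC and in WT), 14 had an extreme fish that lay farther from the others than Dixon's 95% limit allows. Chance would give about 4.7 if values were normal and measures independent. Low counts and shares of the same counts do not meet these terms, so the excess is a description and no test. Of the 14, 8 were in WT replicate 5 and 4 in ABC replicate 8.

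WT replicate 5 was high for apoa2 (303 CPM, the other WT fish 89.8 to 122), apoa1b (341 CPM, others 62.6 to 96.5), FGB (90.0 CPM, others 27.6 to 45.6), fetub (214 CPM, others 53.0 to 98.8) and serpina1 (23.5 CPM, others 5.44 to 7.68). It was also high in the members' share of all counts (0.605%, others 0.0880% to 0.140%), in their share of the counts outside pre-miRNAs (11.4%, others 3.11% to 5.41%) and in the share of counts outside pre-miRNAs (5.32%, others 2.54% to 3.09%).

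ABC replicate 8 was high for apoa2 (134 CPM, the other ABC fish 25.6 to 45.0), fga (99.3 CPM, others 13.7 to 20.6) and c4 (19.0 CPM, others 1.25 to 5.69), and low in the share of f2, f5 and F9 among these and the fibrinogen genes (20.2%, others 43.6% to 50.4%). ABC replicate 6 had 0.542 CPM of serpinf2a, which is 1 count, where the other ABC fish had 0, a pattern that always passes the limit. ABC replicate 7 had 0.415 CPM of serpina1, also 1 count, where the others had 3.60 to 3.80.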

How the results depend on the processing

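No paired analysis was made because the sample labels state no pairing between ABC and WT fish. The members called lower (20 reported) numbered 9 with total count alone, 10 at a stricter threshold (padj under 0.01, L2FC of 1 or more in size), and 12 (without WT replicate 5) to 27 (without ABC replicate 8) when 1 fish was left out. With 2 combinations added after the data were seen, they numbered 11 (features other than pre-miRNAs, without WT replicate 5) and 2 (total count alone, without WT replicate 5) members, and in the second of these 1 member, apoeb, was called higher. The other alternatives gave 15 to 26. The median L2FC of the members was -1.06 with total count alone, -0.32 with total count and WT replicate 5 left out, and -1.66 to -1.16 leaving out 1 fish. The median of all features was 0.72, 1.21 and 0.18 to 0.48 in the same fits, and 0.12 over features with 20 or more counts. Over all features 289 were called (162 higher, 127 lower), against 312 (246 higher, 66 lower) with total count alone, 142 with filterByExpr, 140 at the stricter threshold, 139 and 573 in the 2 added combinations, and 179 (without WT replicate 5) to 371 leaving out 1 fish. Of 807 values of 39 members under the alternatives, 673 kept direction and call, 87 lost the call, 29 gained it and 18 changed sign. The changes of sign, all of members not called, were f2 (0.080), f5 (0.15), F9 (0.33), cfh (0.33) and c3b.1 (0.41) with total count alone; f2 (0.57), f5 (0.70), F9 (0.38), cfh (0.96), c3b.1 (0.89), c3b.2 (0.10), fetub (0.37) and ambp (0.10) with total count and WT replicate 5 left out; and c3b.1 also with TMM without the feature with the most counts (0.016), over features other than pre-miRNAs without WT replicate 5 (0.039) and leaving out 1 fish (-0.40 to 0.21). The differences of the apoeb, c3b and f2, f5 and F9 shares kept within the spread between fish when each fish was left out. The cause of these shifts was not tested. Genes with few counts limit the result: 4 called members (apoea, serpinf2a, F7 and c3a.4) have under 10 counts in ABC and reached the minimum through WT. Of the 70 picked rows, 13 were too thinly covered to test.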
